A study of Mus musculus with 10 samples.

Results

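Itgav, Itga5, Itga8, Itgb3, Itgb5, Itgb6 and Itgb8 encode subunits of the integrins that bind the tripeptide RGD in matrix proteins. Their transcripts were measured by poly-A RNA-seq in 10 samples of wild-type primary epithelial cells from the mouse mammary gland, grown in serum-containing medium. Biglycan (BGN), a matrix proteoglycan rich in leucine repeats, was given as protein at 100 ng/mL to 5 samples, the BGN group, and 5 Control samples received none. The labels give neither the duration of stimulation nor the age of the mice, and they do not say whether replicates were separate animals or cultures, so the spread between samples may be technical. The 7 genes were found by symbol among 53167 listed genes, and all 7 were among the 14415 that passed the filter on low counts. The set was chosen on an earlier result of the same contrast: among genes with enough counts, Itgb8 had been one of those with the smallest unadjusted p between BGN and Control. Differences between the groups are therefore given as a description, with no p for any member.

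Integrins are heterodimers of an alpha and a beta chain that link the matrix to the cytoskeleton. The αv chain pairs with β1, β3, β5, β6 or β8, whereas α5 and α8 pair with β1, which is outside the set and was followed as Itgb1. The fibronectin receptor α5β1 and the αv integrins take part in adhesion and migration, and αvβ6 and αvβ8 are known in epithelia for releasing active TGF-beta from its latent complex. The short cytoplasmic tails of most beta chains carry NPXY or related NXXY motifs, at which talin and kindlins bind. The β8 tail is known as an exception.

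That difference is visible in the coding sequence. The last 180 coding bases before the stop codon are printed to show which of the beta subunits measured here carry the motif. They are from GENCODE M21 transcripts (GRCm38; principal isoform, 5′ to 3′), and capitals mark in-frame codons for NXXY, of which NPXY is a special case.
Itgb1: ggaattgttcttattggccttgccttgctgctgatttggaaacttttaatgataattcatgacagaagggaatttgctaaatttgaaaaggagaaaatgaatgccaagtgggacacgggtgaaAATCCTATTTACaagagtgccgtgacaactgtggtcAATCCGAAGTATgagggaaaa
Itgb3: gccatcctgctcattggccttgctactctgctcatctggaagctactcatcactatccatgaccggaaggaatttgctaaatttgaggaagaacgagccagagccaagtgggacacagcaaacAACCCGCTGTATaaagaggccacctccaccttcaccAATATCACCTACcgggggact
Itgb5: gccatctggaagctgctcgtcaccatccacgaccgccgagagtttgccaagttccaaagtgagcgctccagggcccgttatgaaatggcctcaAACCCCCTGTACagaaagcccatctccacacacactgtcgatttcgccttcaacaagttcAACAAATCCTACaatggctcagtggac
Itgb6: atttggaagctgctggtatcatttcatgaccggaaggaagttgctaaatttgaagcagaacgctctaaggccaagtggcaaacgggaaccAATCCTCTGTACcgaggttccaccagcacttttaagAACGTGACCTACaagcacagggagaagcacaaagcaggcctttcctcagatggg
Itgb8: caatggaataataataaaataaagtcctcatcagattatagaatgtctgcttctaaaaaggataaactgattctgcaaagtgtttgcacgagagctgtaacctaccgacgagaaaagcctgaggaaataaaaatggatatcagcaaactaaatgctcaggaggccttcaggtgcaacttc

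Itgb3, Itgb5 and Itgb6 each held 2 NXXY matches, of which 1 was NPXY, and both matches of Itgb1 were NPXY. The last match ended 3 codons before the stop in Itgb1 and Itgb3, 5 in Itgb5 and 14 in Itgb6. Itgb8 had 0 matches to either pattern in this window, so the subunit that led to the set is also the one whose tail is written differently. Over 21392 genes with a complete coding sequence, 0.435% held NPXY and 5.81% held NXXY in their last 180 coding bases, searched in frame on the coding strand. A match describes the letters and is not evidence of binding.

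The libraries held 18292624 to 21820560 counts. Values are CPM, counts per 1000000 after TMM scaling, unless another scale is named. Transcripts of both mammary epithelial layers were abundant, at 5250 to 5530 summed CPM (library totals alone) over 6 basal markers in BGN and 5200 to 6440 in Control, and at 3480 to 3720 and 3600 to 4090 over 6 luminal markers. Among the basal markers the smooth muscle genes Acta2 and Myh11 were low, at 27.6 and 0.201 CPM on average. Other cell types in which RGD integrins are prominent were scarce. Sums over 9 fibroblast and pericyte markers were 51.2 to 57.0 CPM in BGN and 44.2 to 65.7 in Control, of which Pdgfra gave 38.7 on average. Sums over 7 endothelial markers were 4.93 to 6.04 and 5.46 to 6.45 CPM, of which Pecam1 gave 5.25 on average. Over 9 myeloid and platelet markers the sums were 3.85 to 6.24 and 3.56 to 7.23 CPM. Most of these came from Itga2b, Cd68 and Csf1r, at 2.02, 1.65 and 1.26 CPM on average. In the same list, Adgre1 had 0 counts in all 10 libraries, which allows up to 0.0153 CPM (3 counts of all reads, counting error only), and Ptprc averaged 0.0103 CPM. Control replicate 5 stood apart on the second principal component (score -26.9, with 7.77 the highest score). The mitochondrial share was 2.135% to 2.256% in BGN libraries. Control replicates 1, 2 and 5 lay below this range, at 1.802%, 1.906% and 1.155%. Control replicate 3 was next to the lowest BGN library, at 2.132%, and Control replicate 4 was above the range at 2.269%. Control replicates 1, 2 and 5 were also the 3 lowest Control libraries for Itgav and Itgb6, and replicates 1 and 5 the lowest for Itgb8. The part of this in the members' differences was not tested. On the first component the extreme score was that of BGN replicate 5 (21.0). In such bulk samples, fewer cells of a type and less RNA per cell cannot be told apart.

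Per length of transcript, the members spanned about 1 order of magnitude. Itgb5 was highest at 51.6 ± 2.82 CPM per kilobase (SD over all 10 libraries, as for the values per kilobase that follow), then Itgb3 at 47.2 ± 2.82 and Itgav at 45.5 ± 3.56. These 3 genes were not set apart: their ranges overlapped, with Itgb5 above Itgb3 in 9 of 10 libraries and Itgb3 above Itgav in 6 of 10. They stood at the 87.3 to 89.2 percentile of 12364 tested genes with a known length.

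Below them each step was larger than the spread, with no overlap of neighbouring ranges. Itgb8 was at 21.9 ± 1.73 CPM per kilobase, 2.07-fold below Itgav, and Itga8 at 14.4 ± 0.926. Itgb6 was at 6.26 ± 0.575 and Itga5 at 4.45 ± 0.367 CPM per kilobase, the 35.7 and 28.3 percentiles. Itgb1, the common partner chain, exceeded every member at 285 ± 3.97 CPM per kilobase, 5.52-fold above Itgb5. Itgav was thus 10.2-fold above Itga5 per kilobase of transcript, and above it in 10 of 10 libraries. The size of this gap depends on the length used, with means of 102 and 6.17 CPM per kilobase of coding sequence.

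The upper part of this order depended on the length used. Itgb8 has the longest transcript of the set, 8403 bases with 2301 coding, and Itgb5 the shortest, 3282 with 2397 coding. Per kilobase of coding sequence the order became Itgb3 (116), Itgav (102), Itgb8 (80.1) and Itgb5 (70.7), with Itgb8 above Itgb5 in 9 of 10 libraries, and Itga8 (26.2), Itgb6 (12.7) and Itga5 (6.17) kept their places. This second scale was added after the values were seen. Which untranslated ends these cells use was not measured, so the place of Itgb5 against Itgb3, Itgav and Itgb8 is uncertain, and Itgb3 and Itgav overlapped on both scales. Itgav was above Itgb8 in 10 of 10 libraries on either scale.

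**Figure D1:**
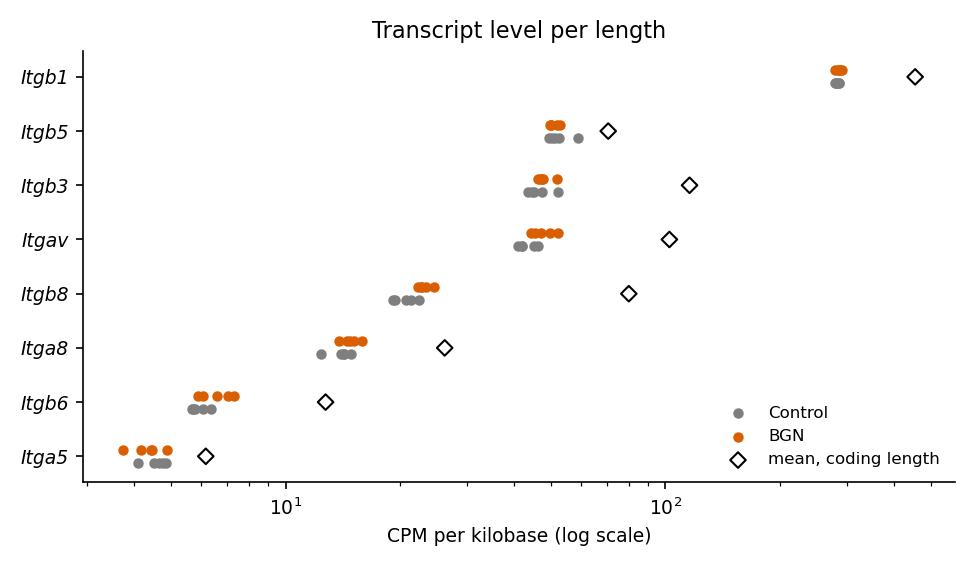
CPM per kilobase of transcript (log axis) for the 7 members and Itgb1, with 1 point per library (grey Control, orange BGN) and, as an open diamond, the mean over 10 libraries per kilobase of coding sequence. Itgb5, Itgb3 and Itgav overlap near 50 on the transcript scale, with Itgb8, Itga8, Itgb6 and Itga5 in separate steps below.

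Between the groups 0 of 14415 genes, or 0%, reached the 0.05 threshold after Benjamini-Hochberg adjustment in edgeR (694 had an unadjusted p under 0.05), and so 0 of the 7 members. The count was 0 by DESeq2 too (662 unadjusted), and 0 by limma-voom (808 unadjusted). Of the members, 5 had estimates above 0 and 2 below, with a median log2 fold change of 0.088. Over all genes tested, 48.0% had estimates above 0 and the median was -0.0040. CPM of the 2 groups overlapped for all 7 members, while 0.728% of the genes tested had groups that did not overlap.

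Of the 3 alpha chains in the set, Itgav was the most abundant, in CPM and per kilobase. The 5 BGN libraries held 331, 369, 351, 319.7 and 312 CPM in the order of replicates 1 to 5, and the Control libraries 289, 295, 319, 325 and 297. The groups overlapped, since BGN replicates 4 and 5 lay below the highest Control library, replicate 4. The means were 336 ± 23.1 and 305 ± 15.98 CPM (n = 5 libraries a group; ± is the SD here and below), a log2 fold change of 0.14 (95% interval 0.044 to 0.24). The antisense gene Gm13684 shares 634 exon bases with Itgav in the GENCODE annotation and had 0 to 3 counts, against 5285 to 6900 for Itgav. The strand setting is not stated, and how the overlap affected the Itgav counts was not measured.

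Itga8, whose product with β1 binds nephronectin, was at 85.7, 80.5, 92.2, 88.0 and 84.4 CPM in BGN and at 71.9, 81.4, 82.9, 86.4 and 82.6 in Control. Control replicate 1 was the low library, and the remaining 9 lay within 80.5 to 92.2 CPM. The log2 fold change was 0.088 (interval -0.016 to 0.19), and 0.048 without Control replicate 1. An antisense gene, E030013I19Rik, shares exon sequence with Itga8 in the GENCODE annotation and had 152 to 241 counts against 1315 to 1852 for Itga8. Without a stated strand setting their reads cannot be fully told apart.

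Itga5, the alpha chain of the classical fibronectin receptor, was the scarcest member, with 322 to 432 counts per library. It was at 19.5, 21.4, 16.4, 18.2 and 19.4 CPM in BGN and at 19.7, 20.3, 17.9, 21.3 and 20.8 in Control, with the highest library of all in the BGN group. The log2 fold change was -0.077 (interval -0.23 to 0.080). It was -0.029 without BGN replicate 3, the lowest library, and -0.12 without BGN replicate 2, the highest.

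Of the beta chains, Itgb8, the gene that led to the set, had the largest estimate. Itgb8 was chosen for a small p in this contrast, so its rank and narrow overlap are not independent of that choice. Its BGN libraries held 191, 207, 193, 188 and 197 CPM and its Control libraries 162, 179.6, 175, 189 and 163. A single library, Control replicate 4, bridged the groups, at 188.9 CPM against 187.7 in BGN replicate 4, the lowest of its group. The means were 195 ± 7.44 and 174 ± 11.5 CPM, with a log2 fold change of 0.17 (interval 0.073 to 0.26), and the estimate was 0.14 without replicate 5 of both groups.

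Itgb6, restricted mainly to epithelia, was a low-abundance member with a similar estimate. It was at 29.2, 33.9, 28.4, 31.7 and 35.3 CPM in BGN and at 27.8, 27.5, 29.2, 30.7 and 27.4 in Control. BGN replicates 2, 4 and 5 lay above every Control library and replicates 1 and 3 did not. The means were 31.7 ± 2.97 and 28.5 ± 1.41 CPM and the log2 fold change 0.15 (interval 0.018 to 0.29), which became 0.098 without replicate 5 of both groups.

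Itgb3, the beta chain of the vitronectin receptor αvβ3, was close to level between the groups. It was at 267, 276, 271, 274 and 299 CPM in BGN and at 260.3, 251, 257, 274 and 301 in Control. Replicate 5 was the highest library in each group. The log2 fold change of 0.047 (interval -0.052 to 0.14) followed these 2 libraries, at 0.019 without BGN replicate 5 and 0.091 without Control replicate 5. It was 0.024 without Control replicate 2 and 0.030 without Control replicate 3.

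Itgb5, the other vitronectin receptor chain, had an estimate with the opposite sign. It was at 173, 164, 164, 170.3 and 163 CPM in BGN and at 168, 172, 165, 162 and 193 in Control, where replicate 5 was the highest of all 10. The log2 fold change was -0.044 (interval -0.14 to 0.050), and it was 0.0014 without Control replicate 5, 0.011 without replicate 5 of both groups and -0.010 by limma-voom with quality weights. Its sign thus turned when that 1 library was left out.

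Itgb1 differed least, at 1092 ± 17.3 CPM in BGN and 1082 ± 12.2 in Control (log2 fold change 0.014, interval -0.059 to 0.086). All intervals are per gene and not adjusted for the number of genes. Since this contrast chose the set, they describe the precision of the estimates and are no test, and for the 7 members they spanned at most -0.23 to 0.29 on the log2 scale. Within groups, the SD of log2 CPM was 0.076 to 0.12 among the members. The median was 0.115 over all tested genes and 0.0997 over those that averaged 50 or more counts. Itga5 (0.122) and Itgb6 (0.107) lay above the second median and the remaining members below it. The small p that chose Itgb8 also favours a small spread, so its place here is no finding.

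**Figure D2:**
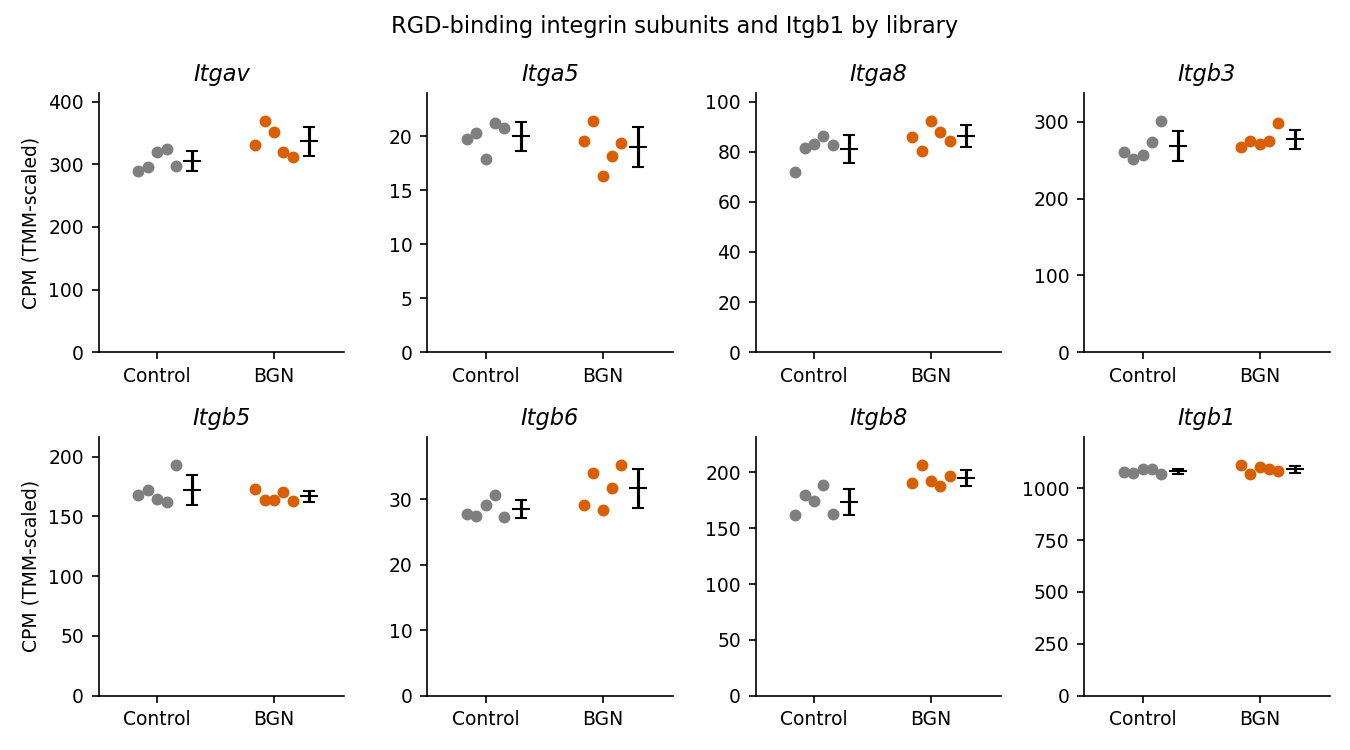
CPM (TMM-scaled, each axis starting at 0) of the 7 members and Itgb1 in the 5 Control (grey) and 5 BGN (orange) libraries, in replicate order from left to right, with the mean and SD in black. The groups overlap in every panel; for Itgb8 the overlap is 1 Control library at 188.9 CPM.

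**Figure D3:**
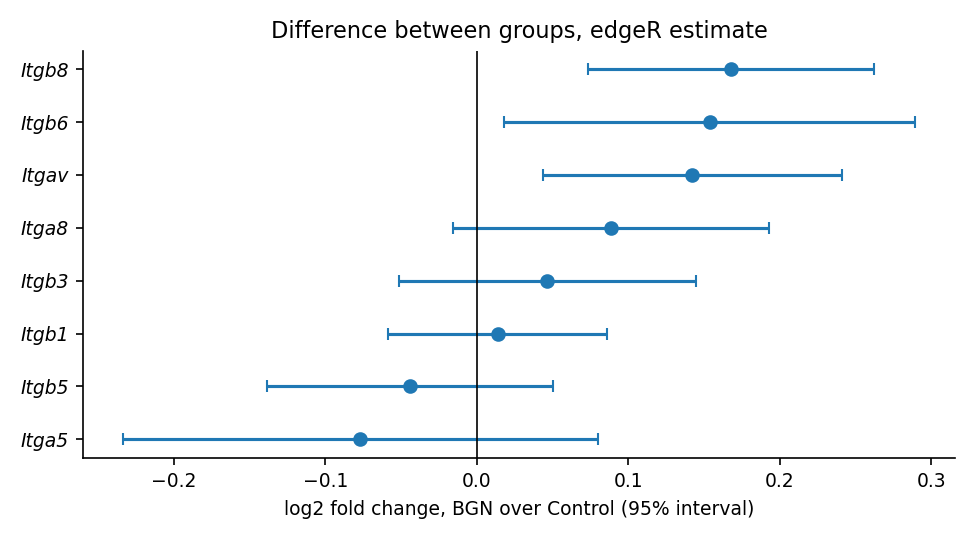
log2 fold change of BGN over Control from the edgeR fit (points) with unadjusted 95% intervals (bars). Estimates run from -0.077 (Itga5) to 0.17 (Itgb8), and the bars show precision only, since this contrast chose the set.

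The makeup of the beta transcripts was taken over the beta chains in the set. Itgb1, also a partner of αv and at 285 CPM per kilobase, was left out of the sum. Per kilobase of transcript, Itgb5 gave 39.5 ± 1.47% of the summed Itgb3, Itgb5, Itgb6 and Itgb8 level in BGN and 41.8 ± 1.54% in Control, and Itgb3 gave 37.3 ± 1.13% and 37.0 ± 1.11%. Itgb8 gave 18.04 ± 0.635% and 16.5 ± 1.47%, and Itgb6 5.12 ± 0.393% and 4.74 ± 0.353%. The groups overlapped for each share, and Control replicate 5 had the lowest Itgb8 share, 14.25%. Per kilobase of coding sequence the Itgb8 share was 29.7 ± 0.893% and 27.7 ± 2.11%, so the order of Itgb5 and Itgb8 again turned on the length. Itgav stood at 0.371 ± 0.0288 of this sum without Itgb1 in BGN and 0.345 ± 0.0253 in Control, per kilobase of transcript.

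**Figure D4:**
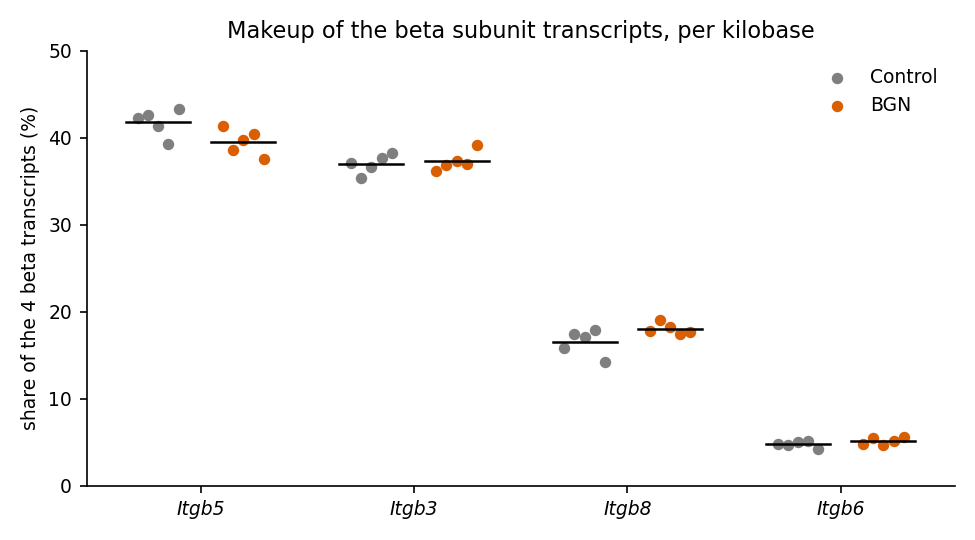
Share of each of 4 beta subunit transcripts in their summed CPM per kilobase of transcript, with 1 point per library (grey Control, orange BGN) and the group mean as a line. Itgb5 and Itgb3 lie between 35.35% and 43.31%, Itgb8 14.25% to 19.05% and Itgb6 4.185% to 5.557%, with overlapping groups.

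Whether the transcripts of known partner chains varied together was asked within the groups, after each gene's group mean was removed. The difference between groups thus did not enter, but the small p that chose Itgb8 also depends on its spread within groups. Over 10 libraries Itgav and Itgb8 had a Pearson r of 0.643 (exact permutation within groups, two-sided, p = 0.0502, 0.351 adjusted over 7 pairs) and a Spearman rho of 0.539 (p = 0.122, adjusted 0.607, same test). The r fell to 0.237 without BGN replicate 2 and Control replicate 4, the 2 libraries farthest from the median of Itgav (group means kept). Leaving out extremes of Itgav narrows its range, which by itself can lower r. It was 0.526 without BGN replicate 2 alone and 0.536 without Control replicate 4 alone, with group means taken anew. Among the 11964 genes that averaged 50 or more counts, 3.41% had an r with Itgav at least as high.

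None of the other 6 pairs passed either. Itgav had an r of 0.0724 with Itgb1, 0.117 with Itgb6, -0.209 with Itgb3 and -0.383 with Itgb5 (exact permutation p = 0.867, 0.774, 0.563 and 0.262; adjusted 0.867, 0.867, 0.788 and 0.458), and rho was 0.212, 0.0303, -0.0303 and -0.224 (p = 0.596, 0.953, 0.946 and 0.529; adjusted 0.834, 0.953, 0.953 and 0.834, permutation). Without the same 2 libraries these r were 0.582, -0.497, -0.366 and -0.191, which for Itgb6 turns the sign. With Itgb1, Itga8 had an r of 0.451 (exact permutation p = 0.204, adjusted 0.458; rho 0.503, p = 0.173, adjusted 0.607), or 0.337 without BGN replicate 2 and Control replicate 1. Itga5 had -0.526 with Itgb1 (exact permutation p = 0.167, adjusted 0.458; rho -0.406, p = 0.290, adjusted 0.676), or -0.380 without replicate 3 of both groups. No pair of partners thus passed after adjustment, and with 10 libraries this cannot show that partner chains vary independently.

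**Figure D5:**
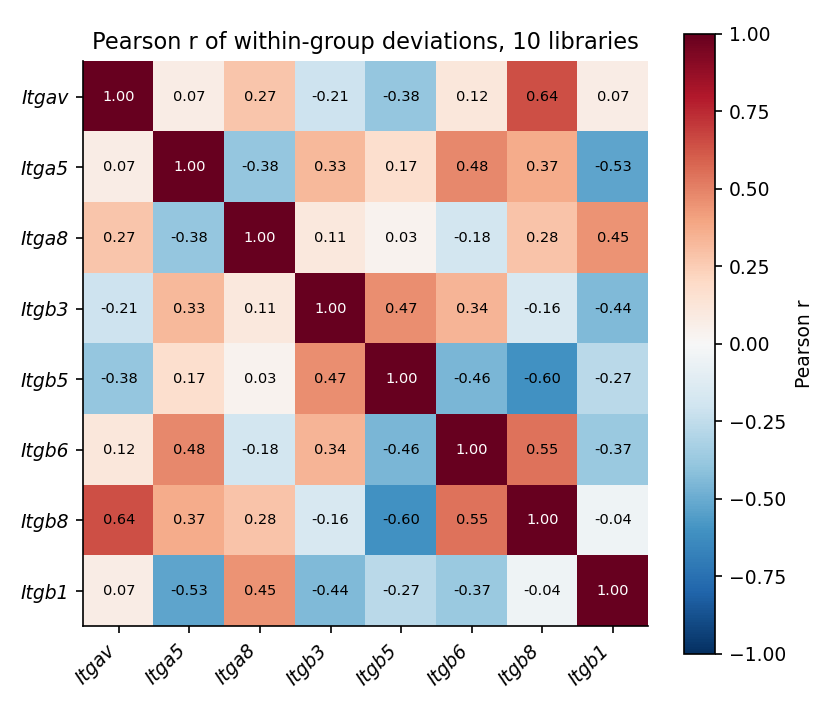
Pearson r between log2 CPM deviations from the group mean over 10 libraries, for the 7 members and Itgb1 (red positive, blue negative; all libraries share depth scaling). The highest value off the diagonal is Itgav with Itgb8 (0.643) and the lowest Itgb5 with Itgb8 (-0.605).

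As a description, the genes whose within-group deviations were most like those of Itgb8 among those 11964 were Zgrf1 (r = 0.970), Zfp871 (0.952), Socs4 (0.951), Pggt1b (0.950) and Rbm26 (0.947), over 10 libraries. For Itgav they were Nfib (0.942), Braf (0.924), Pla2r1 (0.900), Dsg3 (0.898) and Fndc3b (0.893). No integrin subunit was among either 5. Such values are the extremes of many genes over few libraries.

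The ligands of these integrins were expressed but did not pass the test. Of 16 RGD-bearing ligands, 12 were tested, with 8 estimates above 0, 4 below and a median log2 fold change of 0.053; 0 passed. Spp1, encoding osteopontin, was at 1411 ± 106 CPM in BGN and 1333 ± 171 in Control, and Mfge8, a milk fat globule protein that bridges αvβ3 and αvβ5 to membranes, at 1024 ± 86.4 and 1043 ± 70.2. The log2 fold changes were 0.082 for Spp1, -0.026 for Mfge8, 0.050 for the tenascin-C gene Tnc and -0.055 for the thrombospondin gene Thbs1. Vtn, Ibsp, Vwf and Egfl6 were too low to be tested, so the gene of vitronectin, the name-giving ligand of αvβ3 and αvβ5, was not among the tested transcripts.

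Transcripts for parts of latent TGF-beta complexes, a class on which αvβ6 and αvβ8 act, were detected, and proteins were not measured. All 8 listed genes were tested, with 5 above 0, 3 below and 0 passing (median 0.026). Nrros was low, at 0.598 CPM in BGN and 0.577 in Control. Tgfb3 was the main ligand transcript, at 473 ± 23.5 CPM in BGN and 467 ± 15.7 in Control. Lrrc32, encoding the membrane anchor GARP that presents latent TGF-beta, was at 119 ± 1.199 and 112 ± 5.37 CPM (log2 fold change 0.083), while the matrix anchors Ltbp3 and Ltbp1 had -0.029 and 0.033. Of 10 TGF-beta response genes 7 lay above 0, 3 below and 0 passed (median 0.019): Pmepa1 was at 875 ± 21.9 and 864 ± 53.9 CPM, and Skil, Ski and Ltbp2 had log2 fold changes of 0.10, 0.020 and 0.082.

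Adaptors that bind beta tails or join the complexes formed there, tested for 16 of 19, had 12 estimates above 0, 4 below and 0 passing (median 0.024). Flna, Parva, Lims1 and Tln1, encoding filamin A, alpha-parvin, PINCH-1 and talin-1, were the most abundant in CPM (filamin A and talin-1 bind the tails, alpha-parvin and PINCH-1 bind integrin-linked kinase), with log2 fold changes of 0.020, 0.0085, 0.063 and 0.040. Of 17 integrin subunits outside the RGD class 9 were tested, 5 above 0, 4 below and 0 passing (median 0.026). The laminin receptor chains Itga6 (754 ± 53.2 and 730.2 ± 39.0 CPM), Itgb4 and Itga3 had log2 fold changes of 0.046, 0.026 and -0.063, and the collagen receptor chain Itga2 had 0.11. The remaining RGD-binding subunit, Itga2b of platelets, was at 1.81 ± 0.546 and 2.22 ± 0.511 CPM. The smallest adjusted p in any of these lists was 0.945 (edgeR).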

How the data were processed

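The deposited values are raw whole-number counts per gene symbol, 1 column per sample, mapped to groups through sample titles and descriptions. Per the submitters' processing notes, the tools included HISAT2 2.2.1, cutadapt 1.9.1, HTSeq, FastQC and DESeq2, and the build was GRCm39. The strand setting is not given in the sources used. No coordinates are given, because the reference at hand is GRCm38.

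Low counts were removed by filterByExpr. After TMM scaling, the quasi-likelihood test of edgeR 4.0.16 was run in R 4.3.3 with robust estimation and treatment as the single term, and p-values were adjusted by Benjamini-Hochberg over 14415 genes. Intervals use an SE derived from the F statistic. The fit was tested on simulated data. At a 1.25-fold change, the smallest simulated, 36 of 50 genes were called, and at no change 15 of 14087. The estimates of the members were smaller than 1.25-fold, a size that was not simulated. Log2 CPM for correlations used a prior count of 2. Lengths are of GENCODE M21 principal transcripts, known for 85.8% of tested genes. The members and the lists were chosen with earlier results of these data known. Named genes were the members, Itgb1, the 4 most abundant tested genes of each list, and the 5 genes most like Itgb8 and Itgav. Alternatives were other scalings, filters, DESeq2 1.42.0, limma-voom (limma 3.58.1), a replicate block, and leaving out libraries.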

Additional observations from a re-analysis of the deposited data

Results flagged for a closer look

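In 24 checks of a group of 5 for a library far from the others, 1 value stood apart: Itgb3 in BGN replicate 5, at 299.2 CPM. Its gap to the nearest library was 0.729 of the group's range, above the limit of 0.71. About 1 in 20 such groups passes this limit by chance.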

How the results depend on the processing

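No member passed under any of 18 alternatives, each adjusted over all genes tested. Itgav, Itga5, Itga8, Itgb3, Itgb6 and Itgb8 kept the sign of their estimate in 18 of 18, and Itgb5 in 16. The Itgb8 estimate ranged from 0.143 to 0.200 and that of Itgav from 0.108 to 0.169. The count of genes passing was 0 except without the filter on low counts, where 3 of 26531 genes passed, none of them members (smallest adjusted p 0.0145 by edgeR); the cause was not tested. With the replicate number as a block 0 genes passed, and the Itgb8 estimate was 0.170. The labels do not say whether libraries of the same number were paired. Deviations of same-numbered libraries correlated at -0.0198 to 0.201, and 3 of 10 libraries correlated best with their own number. No pair of subunits passed under the 13 alternatives for the correlations, where r of Itgav with Itgb8 ranged from 0.526 to 0.777. The sign changed among the alternatives for Itgav with Itgb1 (-0.232 to 0.732), Itgb3 (-0.337 to 0.479) and Itgb6 (-0.154 to 0.551). It was kept for Itgav with Itgb5 (-0.848 to -0.244), and for Itgb1 with Itga5 (-0.744 to -0.256) and Itga8 (0.255 to 0.66).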

Other observations

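Of the adaptors below the 4 most abundant, Dab2, whose product binds NPXY motifs of beta tails, had the largest estimate of its list, at 56.4 ± 3.34 CPM in BGN and 50.2 ± 2.26 in Control (SD, n = 5 each; log2 fold change 0.17, interval 0.060 to 0.27, edgeR adjusted p = 0.945, groups overlapping). Npnt, encoding the α8β1 ligand nephronectin, was at 40.6 ± 2.19 and 38.0 ± 2.48 CPM (log2 fold change 0.099). Among the RGD-bearing ligands Fbn1 and Fbn2 had larger estimates, 0.75 and 0.35, at 13.2 and 110.5 counts on average, with intervals that include 0. Dab2 and Npnt were singled out after their values were seen.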
